A study of Mus musculus with 5 samples.

Results

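Egr1, Ets2, Atf3, Csrnp1, Dusp5 and Ier3 are immediate-early genes, and all 6 were listed in the expression table of this series, 6 of 1489 genes in all. They were chosen by gene symbol, and each symbol matched 1 row. Immediate-early genes are transcribed within minutes of a stimulus from factors that already wait in the cell, without new protein synthesis, and most of their mRNAs decay again within hours. In macrophages the receptor TLR4 senses lipopolysaccharide (LPS) from the envelope of Gram-negative bacteria and switches on MAP kinase cascades and NF-kB, which drive such genes. Their products are transcription factors that carry the response to a next set of genes, and phosphatases and regulators that act back on the kinases.

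RNA came from RAW264.7, a continuous mouse monocyte and macrophage line that arose from a virus-induced tumour, so all groups are 1 line. Control cells were given PBS (2 libraries), the LPS model was given LPS (2 libraries), and the remaining cells were given LPS together with compound 13, a chlorinated metabolite of a mangrove fungus (1 library). The cell model used 0.1 μg/ml LPS and 10 μM compound 13, and RNA was collected after 24 h. The label of the treated library names no compound, so its identity was taken from the study's methods. Only 24 h was sequenced, so the values show levels at that time and not whether a gene had been higher before. Whether the replicates were separate cultures is not stated, and the p-values therefore reflect library-to-library spread alone, possibly of technical origin.

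The table gives FPKM, reads scaled to exon length and to library depth, as log2 values. Depths recovered from these values ran from 16168500 to 17140000 reads per library. The listed genes took 7.995% and 8.21% of reads of control libraries, 17.0% and 17.1% with LPS alone and 16.8% with compound 13. Of 10 macrophage markers 3 were listed (Cd14, Itgam and Fcgr1), with a summed FPKM of 711 and 758 in control, 1409 and 1381 with LPS alone and 1441 with LPS and compound 13. Most of that sum was Cd14, the LPS co-receptor (685 and 732, 1360 and 1331, then 1396 FPKM), which passed as higher with LPS alone, as did 72.7% of the 1053 tested genes. Its log2 fold change of 0.93 turned to -0.24 when libraries were rescaled to the median ratio of the listed genes, and to -0.17 after quantile normalization. Fcgr1, an antibody receptor, was at 14.4 and 16.6 FPKM in control, 13.5 and 14.1 with LPS alone and 10.02 with LPS and compound 13, where it passed as lower than in control. The keratins Krt8, Krt18 and Krt19, 3 of 8 epithelial markers, had 0 reads in both control libraries and with compound 13, but 592 and 364 reads in the LPS model. The listed fibroblast and matrix markers, 3 of 9, had 0 to 1 reads outside the LPS model and 281 and 199 in it, and the endothelial ones, 3 of 5, had 2 to 23 outside it and 115 and 91 in it. The endothelial markers differed. Cav1 had 0 reads outside the LPS model and 75 and 58 in it. Cdh5 had 17 reads with compound 13, beside 17 and 21 in the LPS model, and Kdr had 6, beside 23 and 12. None of 5 lymphocyte markers was listed.

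On the FPKM scale, all 6 immediate-early genes were higher in the LPS model than in control at 24 h, from 1.89-fold (Csrnp1) to 15.3-fold (Dusp5), though Atf3 and Csrnp1 turned lower when libraries were rescaled to the median ratio of the listed genes. Together they held 229.9 and 243 RPM (reads scaled to library depth) in control, 1018 and 1021 with LPS alone and 996 with LPS and compound 13. Each gene had a higher value in the lower LPS library than in the higher control library, the smallest such gap being 1.76-fold (Csrnp1) and the largest 14.1-fold (Dusp5). The share of all genes with such a gap was not counted. Since 72.7% of the 1053 tested genes passed as higher in the LPS model, a gap alone does not set these genes apart. Replicates of a group differed by 1.03- to 1.15-fold in control and 1.01- to 1.06-fold in the LPS model. All 6 passed the filter on low values in control as well as with LPS, the lowest FPKM being 2.64.

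**Figure D1:**
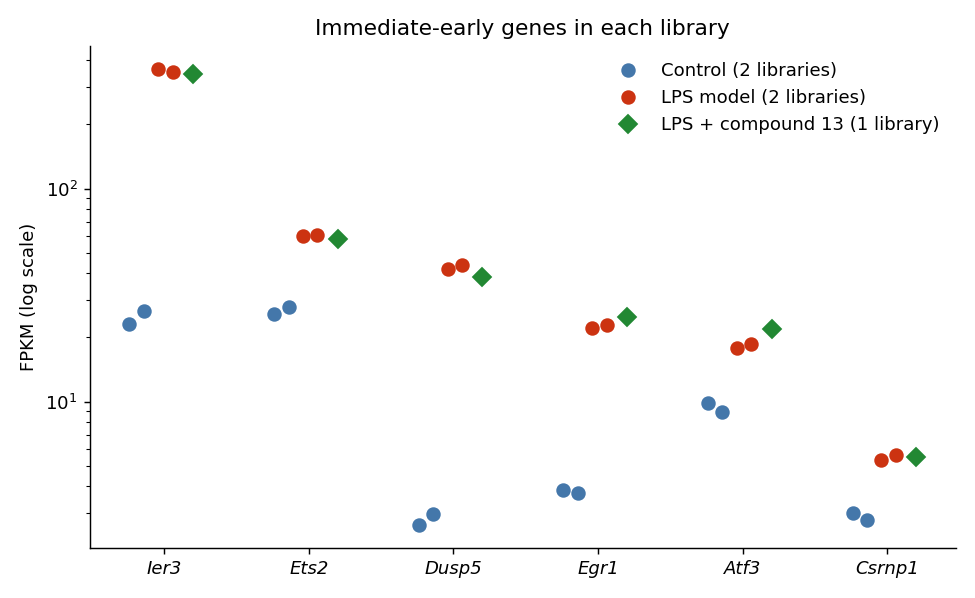
FPKM on a log axis (y) of each gene (x) in each of the 5 libraries, 1 point per library, with no error bars. For each gene the LPS model and compound 13 points sit above the control points, by 1.76-fold or more between the nearest control and LPS model libraries, while the compound 13 point lies close to the LPS model points.

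Egr1 is a zinc finger transcription factor that binds GC-rich sites and is a standard readout of ERK signalling. It is annotated on the plus strand of GRCm38 (ENSMUSG00000038418, chr18:34859823-34864984). Its FPKM was 3.84 and 3.72 in control, 22.1 and 23.0 in the LPS model and 24.9 in the compound 13 library, resting on 285, 285, 1642, 1665 and 1910 reads. The 3 libraries given LPS lay close together, far above both controls. The level rose from 3.78 ± 0.0853 to 22.5 ± 0.630 (SD, n = 2 each), 5.96-fold, with a log2 fold change of 2.30 (SE 0.05, adjusted p = 2.39e-06, limma).

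Ets2, a member of the ETS family of transcription factors that ERK phosphorylates, was already abundant in control. It is annotated on the plus strand (ENSMUSG00000022895, chr16:95702075-95721051). Its FPKM was 25.7 and 27.7 in control, 59.8 and 60.6 with LPS alone and 57.8 with LPS and compound 13. Groups with and without LPS did not overlap, and 2458 or more reads lay behind every value. The mean went from 26.7 ± 1.42 to 60.2 ± 0.606 FPKM (SD, n = 2 each), 2.26-fold, with a log2 fold change of 1.15 (SE 0.05, adjusted p = 1.24e-05, limma). Relative to the median listed gene its log2 fold change was only 0.01. In its RefSeq promoter window none of the motifs searched was found, and its 3′ UTR of 1913 bases held no copy of the heptamer TATTTAT.

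Atf3 is a bZIP factor of the ATF and CREB family, induced by many stresses and by TLR4, that restrains cytokine genes in macrophages. It is annotated on the minus strand (ENSMUSG00000026628, chr1:191170296-191218039). Its FPKM was 9.81 and 8.90 in control, 17.9 and 18.6 in the LPS model and 21.9 in the compound 13 library, from 328 to 809 reads. The compound 13 library was the highest and the controls the lowest. The mean went from 9.36 ± 0.640 to 18.3 ± 0.512 FPKM (SD, n = 2 each), 1.95-fold, with a log2 fold change of 0.90 (SE 0.06, adjusted p = 6.65e-05, limma). After rescaling to the median ratio it was -0.19.

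The bases just before the RefSeq start of Atf3 are shown because they hold the core site that ATF and CREB factors bind, TGACGT, read here on the other strand and given in capitals (GRCm38.p6, chr1:191183334-191183361, minus strand, positions -28 to -1 from the start). The window's start lies inside the annotated gene, and the stretch overlaps an annotated exon.
Atf3: tggaagctattaatagcattACGTCAgc

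Csrnp1, a nuclear protein first described as induced by Axin and thought to act in transcription, had the lowest level of the 6 with LPS. It is annotated on the minus strand (ENSMUSG00000032515, chr9:119971163-119984658). Its FPKM was 3.01 and 2.78 in control, 5.29 and 5.63 with LPS alone and 5.49 with LPS and compound 13, from 165 to 327 reads. The compound 13 value fell between those of the LPS model, and both controls lay below. The mean went from 2.89 ± 0.162 to 5.46 ± 0.236 FPKM (SD, n = 2 each), 1.89-fold, with a log2 fold change of 0.73 (SE 0.07, adjusted p = 0.000245, limma), the smallest of the 6, and of -0.20 after rescaling to the median ratio.

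RefSeq gives Csrnp1 4 start sites, of which 3 had none of the motifs searched in their windows. The fourth held the AP-1 motif TGANTCA (N for any base) at 2 positions, in capitals in the stretch before that start (GRCm38.p6, chr9:119983024-119983140, minus strand). This start and the stretch lie inside the annotated gene.
Csrnp1: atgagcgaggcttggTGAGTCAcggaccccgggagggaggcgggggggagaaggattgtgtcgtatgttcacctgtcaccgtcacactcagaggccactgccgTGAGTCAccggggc

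Dusp5 is a nuclear phosphatase that dephosphorylates ERK and is itself a target of ERK signalling, so it closes a negative feedback loop. It is annotated on the plus strand (ENSMUSG00000034765, chr19:53529109-53542431). Its FPKM was 2.64 and 2.96 in control, 41.7 and 43.8 in the LPS model and 38.4 in the compound 13 library, resting on 108, 125, 1713, 1751 and 1629 reads. Compound 13 gave the lowest of the 3 values with LPS, still well above both controls. The level rose from 2.80 ± 0.226 to 42.8 ± 1.46 FPKM (SD, n = 2 each), 15.3-fold, the largest ratio of the 6 (counting interval 13.4 to 17.5), with a log2 fold change of 3.53 (SE 0.06, adjusted p = 1.70e-06, limma).

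The promoter stretch of Dusp5 is shown because 2 CArG boxes, the sites of serum response factor through which many immediate-early genes are switched on, stand side by side in it. They span positions -82 to -73 and -72 to -63 from the RefSeq start and are followed by TGACGT on the other strand, all in capitals (GRCm38.p6, chr19:53529048-53529108, plus strand). Only 1.47% of all 32851 promoter windows of this length held a CArG box on either strand.
Dusp5: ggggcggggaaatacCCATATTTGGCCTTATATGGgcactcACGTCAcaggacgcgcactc

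Ier3, also known as IEX-1, is a small protein tied to ERK signalling and to cell survival, and it was the most abundant of the 6 in every library with LPS. It is annotated on the plus strand (ENSMUSG00000003541, chr17:35821684-35822923). Its FPKM was 23.1 and 26.7 in control, 365 and 353 with LPS alone and 344 with LPS and compound 13. With LPS it alone gave 6458 to 6854 reads, against 433 and 516 in control. The level rose from 24.9 ± 2.52 to 359 ± 8.52 FPKM (SD, n = 2 each), 14.4-fold, with a log2 fold change of 3.80 (SE 0.07, adjusted p = 1.75e-06, limma). On the log2(FPKM + 1) scale this was the largest difference of the 6, while Dusp5 had the larger ratio of FPKM, since the added 1 weighs more on its low control level.

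Ier3 is shown with its one promoter match, an NF-kB motif on the other strand, in capitals (GRCm38.p6, chr17:35821606-35821645, plus strand, positions -107 to -68 from the RefSeq start).
Ier3: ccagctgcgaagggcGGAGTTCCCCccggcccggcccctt

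The promoter windows of these 5 genes, 4 for Csrnp1 and 1 for each of the others, came from the 250 bases before each RefSeq start, and that of Egr1 was not analysed here. Over all 32851 windows, both strands were searched, and 7.25% held the NF-kB motif, 6.47% TGACGT, 6.75% TGANTCA, 4.70% the EGR motif GCGNGGGCG and 6.91% the ETS motif CCGGAAG. Counted per gene, a CArG box was held by 1.62% of all 27025 genes and 1.84% of the 1033 listed genes with a window, and the NF-kB motif by 8.23% and 14.5%. The same shares were 7.29% and 8.42% for TGACGT, 7.82% and 11.3% for TGANTCA, 5.33% and 9.87% for GCGNGGGCG, and 7.83% and 5.81% for CCGGAAG. A match only says that these letters are there, and binding was not measured.

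Rapid decay of such mRNAs is linked to AU-rich elements in the 3′ UTR, with TATTTAT as a core. Ier3 held 4 copies in 613 bases. Of 2204 genes with a 3′ UTR within 20% of that length, 16.2% held at least 1 copy and 0.544% held 4 or more. Atf3 and Csrnp1 held 1 copy each, and Egr1, Dusp5 and Ets2 held 0, in 3′ UTRs of 1077 to 1913 bases. Among genes of like length, at least 1 copy was held by 30.01% for Atf3, 26.5% for Csrnp1, 30.5% for Egr1, 27.4% for Dusp5 and 40.2% for Ets2. The sites are given with the heptamer in capitals, positions counted from the first base of the 3′ UTR in GENCODE release M21, at bases 174 to 203 (Ier3, 2 of its 4 copies), 1115 to 1144 (Atf3) and 144 to 173 (Csrnp1).
Ier3: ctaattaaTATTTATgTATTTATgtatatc
Atf3: gaaaatattactTATTTATcccagtattcc
Csrnp1: acactctgaattTATTTATttttttatgtt
Neither synthesis nor decay of these mRNAs was measured.

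Because FPKM is scaled to exon length, levels can be set side by side between genes. In control the order of FPKM was Ets2, Ier3, Atf3, Egr1, Csrnp1 and Dusp5. Ets2 and Ier3 overlapped there, as did Csrnp1 and Dusp5. In both LPS model libraries the order was Ier3, Ets2, Dusp5, Egr1, Atf3 and Csrnp1, with no overlap between neighbours, and the compound 13 library had the same order. Dusp5 therefore moved from last place to 1 below Ets2, while Atf3 moved from above Egr1 to below it.

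All 6 genes passed the test as higher in the LPS model, where 72.7% of the 1053 tested genes did so, a background against which the count itself says little about these genes. Their median log2 fold change was 1.72, against 0.96 over all tested genes. Ier3, Dusp5 and Egr1 stood at places 24, 28 and 89 from the highest, while Ets2 (406), Atf3 (574) and Csrnp1 (670) stood within the body of the listed genes. Rescaling by the median of ratios moved the median of all tested genes from 0.96 to 0.04. Relative to that, Ier3 (2.66), Dusp5 (2.52) and Egr1 (1.27) passed as higher, where 40.1% of genes did, and Ets2 (0.01) did not pass. Atf3 (-0.19, adjusted p = 0.0443, limma) passed as lower, where 36.9% of genes did, and was above 0 under the other 13 alternatives (0.02 to 0.97), and Csrnp1 (-0.20, adjusted p = 0.0515) did not pass. After quantile normalization Dusp5, Ier3 and Egr1 again passed as higher, where 42.1% of genes did. The rise of Ier3, Dusp5 and Egr1 was thus larger than that of the median listed gene, while the differences in Ets2, Atf3 and Csrnp1 depended on the scale.

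**Figure D2:**
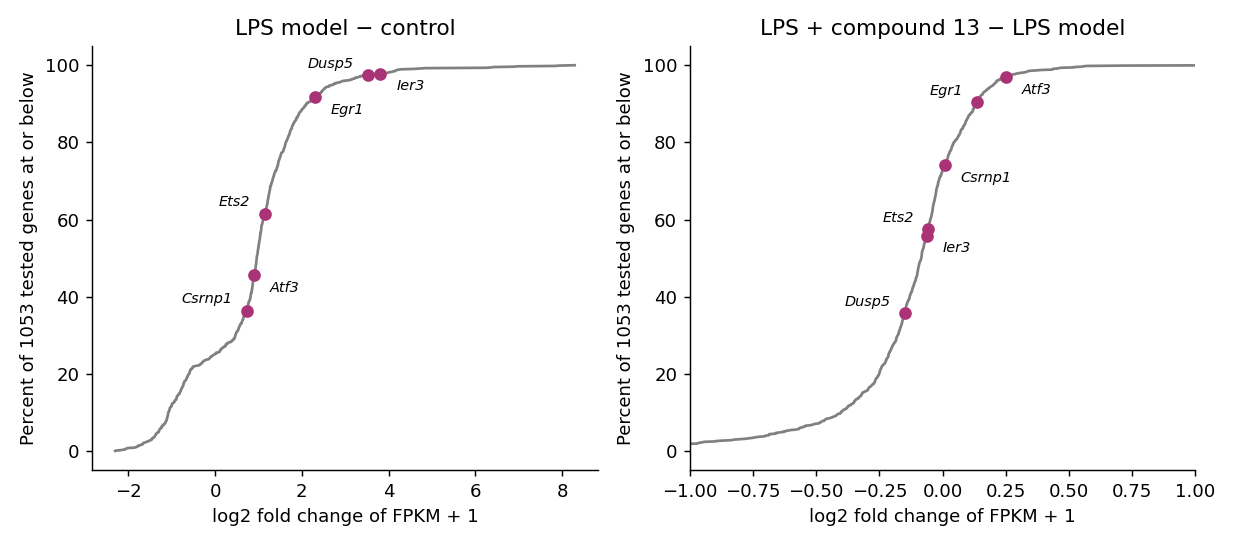
Share of the 1053 tested genes at or below each log2 fold change of FPKM + 1 (y, percent) against that log2 fold change (x), as a grey line, with the 6 genes as points and the right axis limited to -1 to 1. With LPS (left) Ier3, Dusp5 and Egr1 sit near the top, at places 24, 28 and 89 from the highest, and Atf3 and Csrnp1, which turned lower after rescaling to the median ratio, below the middle. With compound 13 (right) Atf3 and Egr1 sit highest, at places 34 and 102.

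Whether compound 13 lowered these genes was asked against the LPS model. None of the 6 passed the test in either direction, where 0.38% of tested genes passed as higher and 7.22% as lower (4 and 76 genes). The 76 include the markers Krt8, Krt18, Krt19, Sparc and Cav1, which had 0 reads in the compound 13 library. How many more of the 76 are of this kind was not counted. At an unadjusted p under 0.05, 1 of the 6 (Atf3) and 264 of all 1053 genes passed. Their median log2 fold change was -0.02, beside -0.08 over all tested genes. The compound 13 value was above both LPS model libraries for Egr1 and Atf3 and below both for Ier3, Dusp5 and Ets2. For Csrnp1 it lay between them. The share of all tested genes with a compound 13 value outside the LPS model libraries was not counted. These positions alone therefore do not set the genes apart.

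Atf3 differed most, 1.20-fold the level of the LPS model, with a log2 fold change of 0.25 (95% interval 0.05 to 0.45, adjusted p = 0.129, limma, and 0.0624 to 0.400 over 14 alternatives). The counting interval of its read ratio was 1.10 to 1.31, but this covers counting error only. Egr1 followed at 1.10-fold, with a log2 fold change of 0.14 (interval -0.03 to 0.30, adjusted p = 0.270).

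Dusp5 was at 0.899-fold the level of the LPS model, with a log2 fold change of -0.15 (interval -0.35 to 0.05, adjusted p = 0.305, limma). Ier3 was at 0.957-fold, with a log2 fold change of -0.06 (interval -0.29 to 0.16, adjusted p = 0.702), and Ets2 at 0.961-fold, with -0.06 (interval -0.22 to 0.10, adjusted p = 0.607), values that both turned to 0.07 when rescaled to the median ratio. Csrnp1 was at 1.01-fold, with 0.01 (interval -0.22 to 0.23, adjusted p = 0.963). The intervals of Ier3, Ets2 and Csrnp1 reach to both sides of 0, as does that of Dusp5 by a smaller margin above it, so equal levels were not shown, and they rest on a lone library assumed to vary like the others.

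Set against the rise with LPS, the share of it that remained with compound 13 was 89.2% for Dusp5 (86.9% to 91.6% over the choice of control and LPS model library), 92.9% for Ets2, 95.4% for Ier3, 101% for Csrnp1, 112.5% for Egr1 and 141% for Atf3 (134% to 149%). These are descriptions of 1 library, on the FPKM scale.

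**Figure D3:**
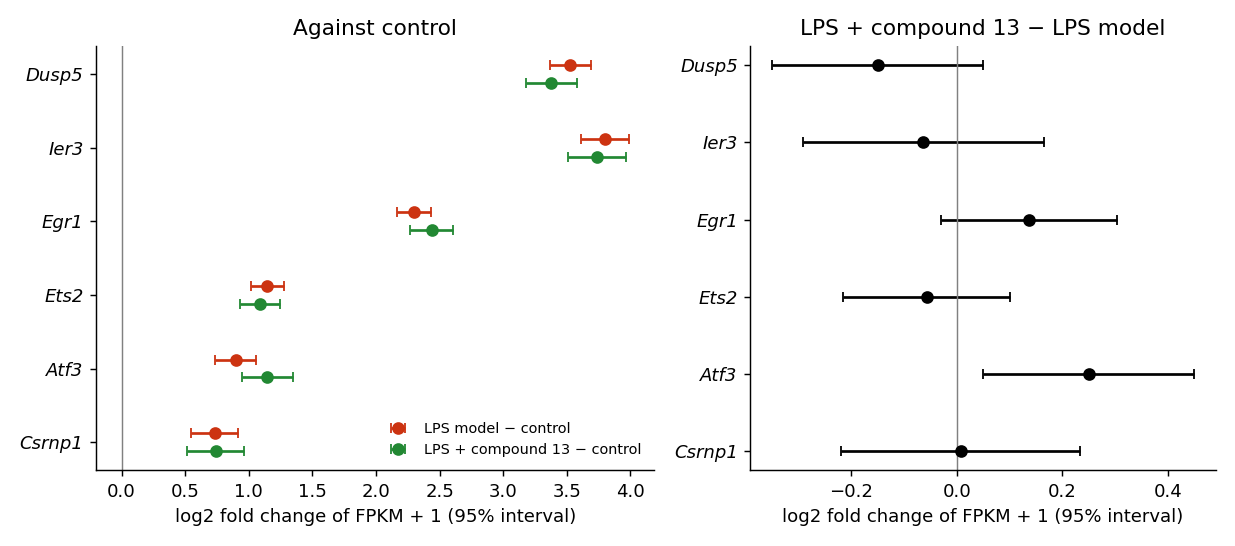
Log2 fold change of FPKM + 1 (x) of each gene (y) with its 95% interval from limma, against control on the left (red LPS model, green compound 13 with LPS) and between compound 13 with LPS and the LPS model on the right. Red and green intervals overlap for each gene. Both use the same control libraries, so this overlap does not show whether compound 13 and the LPS model differ. Red values run from 0.73 (Csrnp1) to 3.80 (Ier3), and those of Atf3 and Csrnp1 turned lower after rescaling to the median ratio. On the right the interval of Atf3 (0.05 to 0.45) lies above 0 before adjustment.

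Against control, all 6 passed as higher with compound 13 and LPS, where 68.1% of tested genes did. Both comparisons use the same control libraries. The log2 fold changes were 3.74 for Ier3, 3.38 for Dusp5, 2.44 for Egr1, 1.15 for Atf3, 1.09 for Ets2 and 0.74 for Csrnp1 (SE 0.06 to 0.09, adjusted p from 5.62e-06 to 0.000661, limma). After rescaling by the median of ratios Ier3, Dusp5 and Egr1 passed, where 34.4% of genes did, and Csrnp1 turned to -0.09. After quantile normalization Atf3 passed as well, where 38.3% of genes did. Keratin reads, present in the LPS model, were 0 in the compound 13 library, and the 6 genes were at 996 RPM there, 1018 and 1021 in the LPS model. Whether the RNA that carried keratin reads bears on the levels of the 6 genes was not tested.

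Of 50 immediate-early and early response genes 27 were listed and 26 tested, and 25 of these, the 6 included, passed as higher in the LPS model, with a median log2 fold change of 1.54, beside 72.7% and 0.96 over all tested genes. After rescaling to the median ratio 17 passed as higher and 4 as lower, beside 40.1% and 36.9% over all tested genes. Myc, the growth-promoting transcription factor, rose from 2.98 and 2.47 FPKM to 36.4 and 37.8, with a log2 fold change of 3.36, beside Dusp5 and Ier3. The kinase gene Plk2 rose by 2.35. Klf4, a zinc finger factor, was the 1 gene that passed as lower, from 4.71 and 5.37 to 3.44 and 2.94 FPKM (-0.53). With compound 13, Zfp36, which codes for the mRNA decay factor tristetraprolin, passed as lower than in the LPS model (29.9 and 30.3 against 24.4 FPKM, log2 fold change -0.29, adjusted p = 0.0466, limma), and the other 25 did not pass, with a median of -0.09 over the 26. Over all tested genes 0.38% passed there as higher and 7.22% as lower, with a median of -0.08. The call of Zfp36 was kept under 6 of 14 alternatives (adjusted p from 0.0166 to 0.340) and was lost without either LPS model replicate (0.213 and 0.249) and with a replicate block (0.122).

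**Figure D4:**
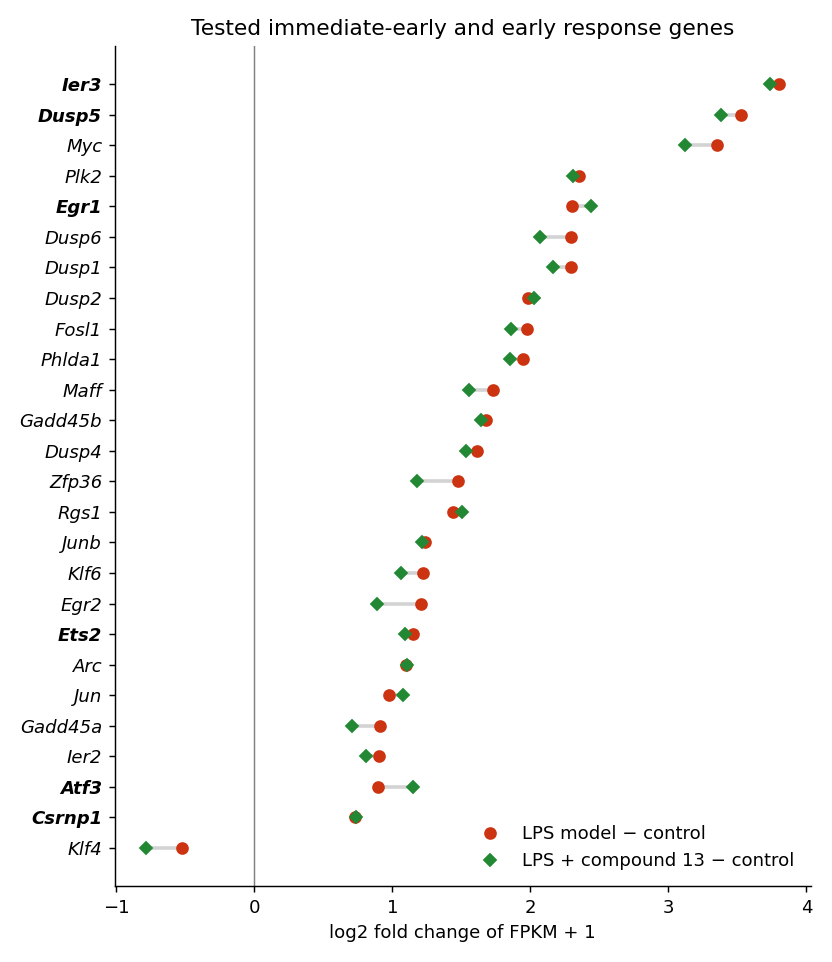
Log2 fold change of FPKM + 1 against control (x) of the 26 tested immediate-early and early response genes (y), red circles for the LPS model and green diamonds for compound 13 with LPS, without error bars, the 6 genes in bold. In both comparisons 25 of 26 lie above 0 and Klf4 lies below, and of the genes in bold Atf3 and Csrnp1 turned lower in the LPS model after rescaling to the median ratio.

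All 6 listed members of 10 dual-specificity MAP kinase phosphatases, Dusp5 among them, passed as higher in the LPS model, with a median log2 fold change of 2.14, beside 72.7% of all tested genes. All 6 still did so after rescaling to the median ratio (median 1.10, beside 40.1% of genes), and 5 after quantile normalization (beside 42.1%), where Dusp4 was at -0.03. After Dusp5 the largest were Dusp6, a cytoplasmic ERK phosphatase (17.0 and 17.7 to 87.3 and 90.5 FPKM, 2.30), and Dusp1, which acts mostly on p38 and JNK (2.48 and 3.71 to 18.5 and 19.2 FPKM, 2.29). With compound 13 none of the 6 passed against the LPS model, with a median of -0.14. Over all tested genes 0.38% passed there as higher and 7.22% as lower, with a median of -0.08. Dusp6 (-0.23, adjusted p = 0.0735, limma, and 0.0230 to 0.389 over 14 alternatives) passed as lower under 4 of them, which were limma-voom, a fit of only the groups compared, and the fits without control replicate 1 or 2. Of 20 genes of ERK output and feedback, 10 were listed, among them Egr1, Ier3 and Dusp5, and also Dusp4 and Dusp6 from the phosphatases above. This list thus in part repeats the same values. All 10 passed as higher in the LPS model (median 2.14) and again after rescaling to the median ratio (1.22), and 9 after quantile normalization, beside the same shares of all tested genes. None passed with compound 13 against the LPS model, beside 0.38% higher and 7.22% lower over all tested genes, and those 4 alternatives called Dusp6 here too. Of 27 kinases of the MAP kinase cascade 2 were listed, Map3k8, the kinase that links TLR4 to ERK (0.82, and -0.07 after rescaling to the median ratio), and Mapk13 (1.03), both higher with LPS on the FPKM scale. Mapk13 was near the floor in control, at 4 and 2 reads (0.0799 and 0.0388 FPKM), against 1.47 and 0.900 FPKM in the LPS model.

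Of 6 genes of the EGR family and its NAB co-repressors, Egr2 was listed beside Egr1, at 0.853 and 0.740 FPKM in control, 2.94 and 3.35 in the LPS model and 2.32 in the compound 13 library. Egr2 was lower and Egr1 higher with compound 13 than in both LPS model libraries, and neither passed (Egr2 log2 fold change -0.32, adjusted p = 0.161, limma). The difference between the paralogs was not tested. Of 21 ETS genes, Etv4 was listed beside Ets2 and passed as higher with LPS (1.07, and 0.73 after rescaling to the median ratio, where Ets2 did not pass). Etv4 was near the floor in control, at 6 reads in each library (0.117 and 0.113 FPKM), against 1.28 and 1.41 FPKM in the LPS model. At such levels the added 1 understates the ratio of FPKM.

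Of 23 ATF, CREB and bZIP genes 5 were tested, Atf3 among them. All 5 passed as higher in the LPS model, beside 72.7% of all tested genes, with a median of 1.04. Jdp2, a repressor that pairs with AP-1 proteins, had the largest (1.82), followed by Atf5 (1.52) and Cebpd (1.04), of which Cebpd was at -0.01 after rescaling to the median ratio, where 2 of the 5 passed as higher and 2 as lower, beside 40.1% and 36.9% of all tested genes. Of 16 genes of the integrated stress response, in which Atf3 is a target, 8 were tested, and Atf3, Atf5 and Ddit3 are on both lists. All 8 passed as higher, with a median of 1.31, where the same shares of all tested genes apply, against 4 higher and 3 lower after rescaling to the median ratio. The cystine transporter gene Slc7a11 (2.80) and the pseudokinase gene Trib3 (1.72) had the largest changes. With compound 13 none of either list passed against the LPS model, beside 0.38% higher and 7.22% lower over all tested genes, whose median was -0.08. Atf3 was the 1 bZIP gene of these above the LPS model at an unadjusted p under 0.05, while Jdp2 and Ddit3 were below it (-0.15 and -0.18). Of the stress genes Chac1 also lay below the LPS model at that threshold (-0.46). Of all 1053 tested genes 264 passed that threshold in either direction. After rescaling to the median ratio Atf3 was at 0.37, Jdp2 at -0.02, Ddit3 at -0.06 and Chac1 at -0.33.

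Over the 5 libraries, the tested genes with the profile nearest to each of the 6 were found by the Euclidean distance of log2(FPKM + 1) values centred on each gene's mean. For Egr1 these were Gsta2 (distance 0.089) and Prdx1 (0.093), a glutathione transferase and a peroxiredoxin, both of which were also highest with compound 13. Atf3 lay nearest to Nfkbid (0.112), which codes for an IkB family protein, at 15.3 and 14.1 FPKM in control, 29.6 and 31.1 with LPS alone and 33.6 with LPS and compound 13, and to the pseudogene Gm17046 (0.112), whose reads may belong to its parent gene. Dusp5 lay nearest to Mmp12 (0.082), macrophage elastase, and Tnfrsf1b (0.176), a TNF receptor. Ets2 lay nearest to Ms4a6d (0.059) and Tubb6 (0.065). Csrnp1 lay nearest to the long noncoding RNA gene Gm26581 (0.081) and to Gramd1b (0.105). Ier3 had the most distant neighbours, the protease inhibitor gene Slpi (0.203) and the cytokine gene Il1b (0.277). A profile over 5 libraries in 3 groups is mostly the size of the LPS difference on the log2(FPKM + 1) scale. Near profiles therefore need not share a ratio of FPKM. Mmp12 went from 0.0418 and 0.0970 FPKM in control to 10.8 and 12.1 with LPS alone. For Dusp5 these values were 2.64 and 2.96, then 41.7 and 43.8. Gsta2 (0.154 and 0.149), Gm17046 (0.142 and 0) and Il1b (0 and 0) were also near the floor in control. The other neighbours were at 1.53 FPKM (Slpi) or more there.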

How the data were processed

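RNA of RAW264.7 cells was sequenced in 5 libraries (KAPA stranded kit). The deposited table holds log2 FPKM values that the authors computed, for 1489 genes. Per the submitters' processing notes, the tools were HISAT2 2.1.0, Trimmomatic 0.32, SAMtools 1.4 and DESeq2, with the build mm10. What counted the reads, with or without strand, on which annotation, and how genes were selected for listing is not given in the sources used here, so overlapping or near-identical genes may share reads. The scale was read from the values, of which 562 of 7445 are exactly 0 and were taken as no read. FPKM times exon length (GENCODE M21) times depth gave whole reads, within 0.1, for 97.2% to 99.4% of values up to 30 reads at the depth found, and for at most 56.1% away from it.

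limma 3.58.1 (R 4.3.3) with a trend was fitted to log2(FPKM + 1) with 3 groups over 5 libraries. The 1053 genes with an FPKM of at least 1 in 2 libraries, or in the compound 13 library, were tested, and a Benjamini-Hochberg adjusted p under 0.05 over all of them was a call. The fit has 2 residual and 2.97 prior degrees of freedom, and the lone library is assumed to vary like the others. Fold changes on this scale understate low genes. Read ratios have exact 95% intervals that cover counting error only. Replicates differed by more than sampling noise (mean chi-square per gene 3.83 in control, 2.35 in the LPS model). Of the scripts, only the limma fit was tested on simulated data, for the LPS model against control. Python 3.11.15 was used for the rest.

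The 6 genes and the gene lists were chosen with earlier results of these data known. Named genes are the 6, up to 3 called members per list and direction with the largest difference with LPS, those of a list called with compound 13, and the 2 nearest profiles. Egr2, Etv4, Mapk13 and Map3k8 are such list members. The values of Nfkbid, Mmp12, Gsta2, Gm17046, Il1b and Slpi, and Chac1, Ddit3 and Jdp2 with compound 13, were picked after their values were seen. Promoter windows are from RefSeq (GRCm38.p6) and matched 5 of the 6 genes. The CArG box and the NF-kB motif, which need letters for several bases, are given by name. 3′ UTRs are of the transcript with the longest coding sequence. Alternatives were a pseudocount of 0.1, a minimum FPKM of 10 or none, quantile normalization, scaling to the median of ratios, a replicate block, only the groups compared, no trend, robust moderation, limma-voom on the recovered reads and leaving out each replicate.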

Additional observations from a re-analysis of the deposited data

How the results depend on the processing

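The calls of the 6 genes did not change with a pseudocount of 0.1, without the filter, with a fit of only the groups compared, without a trend, with robust moderation, with limma-voom on recovered reads, with a replicate block or without any one replicate, at 6 genes higher in the LPS model, 0 differing with compound 13 from the LPS model, and 6 higher with compound 13 than in control. A filter at an FPKM of 10 drops Csrnp1, and the other 5 kept their calls. Rescaling changed the calls, with 3 genes higher in the LPS model under the median of ratios and 3 under quantile normalization, and 3 higher with compound 13 than in control under the median of ratios. The table holds only listed genes, most of them higher with LPS, so both rescalings take that common shift out. Over all tested genes 766 passed as higher and 246 as lower with LPS, 422 and 389 after the median of ratios, and 443 and 348 after quantile normalization.

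Differences that changed sign under the median of ratios were Atf3 (-0.1885) and Csrnp1 (-0.2037) in the LPS model against control, Csrnp1 with compound 13 against control (-0.0923), and Ier3 (0.0659) and Ets2 (0.0703) with compound 13 against the LPS model. Under quantile normalization they were Csrnp1 with LPS (-0.0026) and Ets2 with compound 13 against the LPS model (0.0234). With compound 13 against the LPS model, Csrnp1 ranged from -0.0296 to 0.0449 without each replicate in turn, so its sign is not set.

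The count of all genes called between compound 13 and the LPS model, 80, was far less stable. It was 35 with a pseudocount of 0.1, 15 with the filter at 10, 2 after the median of ratios, 8 after quantile normalization, 141 with only the groups compared and 302 with limma-voom. Leaving out 1 replicate gave 17 to 139 calls, 17 and 22 without LPS model replicate 1 or 2 and 139 and 137 without control replicate 1 or 2. The filter at 10, which tests 494 genes, gave 484 calls in place of 1012 for the LPS model against control and 483 in place of 969 for compound 13 against control. With the replicate number as a block, 52 genes were called between compound 13 and the LPS model. The libraries share only a number, and deviations of same-numbered libraries had a correlation of -0.022 over 1053 genes. Beyond the scalings named, the cause of these differences was not tested. Control reads of Dusp5 (108 and 125) and Csrnp1 (165 and 173) limit those ratios most, and 1 compound 13 library limits all of its comparisons.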
